A study of Homo sapiens with 12 samples.

Results

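Expression of 10 genes that make, lengthen, desaturate and activate fatty acids was followed in prostate cancer cells given palbociclib. They were SREBF1, ACLY, ACACA, FASN, ELOVL6, SCD, FADS1, FADS2, ACSL1 and ACSL3, chosen by name, 10 of the 57167 genes in one deposited table and the same identifiers among the 61860 of the other. The groups were DU145 cells with palbociclib, DU145 cells with DMSO (dimethyl sulfoxide, the solvent), C4-2 cells with palbociclib and C4-2 cells with DMSO, all human cell lines kept in RPMI medium with fetal bovine serum. Palbociclib inhibits the cyclin-dependent kinases CDK4 and CDK6, which phosphorylate the RB1 protein. C4-2 derives from the LNCaP line and is known to keep RB1, whereas DU145 is known to lack functional RB1. The sources used here give neither dose nor duration. RNA of 12 labelled libraries was sequenced, and 11 were used because the column of C4-2 DMSO replicate 3 held only 0. In DU145 there were 3 libraries per treatment, and in C4-2 3 palbociclib libraries were set against 2 with DMSO.

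Cells make saturated fatty acids from cytosolic acetyl-CoA, which ATP citrate lyase (ACLY) releases from citrate, acetyl-CoA carboxylase (ACACA) turns into malonyl-CoA and fatty acid synthase (FASN) builds into palmitate. ELOVL6 lengthens palmitate, SCD places the first double bond in saturated chains, and FADS1 and FADS2 desaturate the polyunsaturated chains. ACSL1 and ACSL3 join fatty acids to coenzyme A, and SREBF1 encodes the transcription factor SREBP1, which is known to drive many of these genes. Prostate tumours are known for active lipid synthesis, with FASN often high.

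Total counts ran from 16108999 to 16674393 in the DU145 libraries, and from 2608851 to 3489659 in those labelled C4-2. The DU145 libraries numbered 3 stood apart from the others of their groups, with a chi-square per degree of freedom of 5.41 to 8.34 in pairs that held one of them and of 2.36 and 2.37 in pairs that did not. Without both of them, 8 of the 10 genes were higher with palbociclib in DU145 and 1 (FADS1) was lower. Of 8 luminal prostate markers, KLK3, KLK2, ACP3 and FOLH1 were at 0 in every library labelled C4-2, although luminal origin is what that label implies, so the groups are named here by their labels. Their summed level was 35.8 to 41.4 CPM (counts scaled to the library total) with palbociclib and 42.1 to 44.4 CPM with DMSO. In DU145, KLK3, KLK2, FOLH1 and TMPRSS2 were at 0, and the sum was 14.7 to 17.5 CPM with palbociclib and 25.9 to 32.5 CPM with DMSO. The 4 epithelial markers EPCAM, CDH1, KRT8 and KRT18 summed to 409 to 444 CPM with palbociclib and 1044 to 1053 CPM with DMSO in C4-2, and to 1675 to 1771 CPM and 2307 to 2500 CPM in DU145. Nearly all of that was KRT8 and KRT18, since EPCAM and CDH1 averaged 0.309 to 1.95 CPM in the 4 groups. Adipocytes and hepatocytes are known for active lipid synthesis. ADIPOQ, FABP4 and LEP were at 0 in C4-2 and ADIPOQ, FABP4 and CIDEC in DU145, while the 6 adipocyte markers summed to 0.592 to 2.08 CPM with palbociclib and 1.99 to 2.29 CPM with DMSO in C4-2, and to 16.4 to 18.8 CPM and 22.3 to 27.9 CPM in DU145. LIPE alone averaged 17.4 CPM with palbociclib and 24.8 CPM with DMSO of the DU145 sums. The 5 hepatocyte markers summed to 37.0 to 39.1 CPM with palbociclib and 38.4 to 40.1 CPM with DMSO in C4-2, and to at most 0.121 CPM and 0.305 CPM in DU145, and SERPINA1 alone averaged 36.1 CPM and 37.2 CPM of the C4-2 sums. The 6 fibroblast markers summed to 166 to 215 CPM with palbociclib and 253 to 283 CPM with DMSO in C4-2, mostly COL1A1 (log2 fold change -0.50, edgeR adjusted p = 3.79e-08), and to 54.5 to 63.9 CPM and 57.2 to 65.4 CPM in DU145. The 6 leukocyte markers summed to 3.34 to 4.59 CPM with palbociclib and 0.366 to 0.805 CPM with DMSO in DU145, mostly CD14 (3.49, edgeR adjusted p = 4.8e-08), and to 0.692 to 3.45 CPM and 2.32 to 2.58 CPM in C4-2. The part of these markers in the results was not tested, and in bulk RNA fewer cells of a type and less RNA per cell cannot be told apart.

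The stretches before the transcription start of 4 of the genes are shown, chosen for their changes. SCD and ACSL3 were higher with palbociclib in both lines. FADS1 and FADS2, whose annotated starts lie 599 or 800 bases apart on opposite strands, were both lower in C4-2. In DU145 FADS2 was called higher and FADS1 was not called. The stretches are the 250 bases before a start in RefSeq, build GRCh38.p14, written 5′ to 3′ on the strand of the gene, with matches to the searched motifs in capitals.
SCD (chr10:100346983-100347232, + strand): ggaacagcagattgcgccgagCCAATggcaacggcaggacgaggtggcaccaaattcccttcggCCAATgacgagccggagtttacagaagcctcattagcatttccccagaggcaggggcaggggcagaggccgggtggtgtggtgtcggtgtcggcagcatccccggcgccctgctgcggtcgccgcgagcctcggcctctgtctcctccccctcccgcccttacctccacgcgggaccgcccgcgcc
ACSL3 (chr2:222860786-222861035, + strand): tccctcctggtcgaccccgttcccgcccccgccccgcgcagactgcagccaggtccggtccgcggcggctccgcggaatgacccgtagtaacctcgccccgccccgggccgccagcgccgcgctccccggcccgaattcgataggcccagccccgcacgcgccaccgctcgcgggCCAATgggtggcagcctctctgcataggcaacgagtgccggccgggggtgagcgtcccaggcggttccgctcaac
FADS1 (chr11:61817004-61817253, - strand): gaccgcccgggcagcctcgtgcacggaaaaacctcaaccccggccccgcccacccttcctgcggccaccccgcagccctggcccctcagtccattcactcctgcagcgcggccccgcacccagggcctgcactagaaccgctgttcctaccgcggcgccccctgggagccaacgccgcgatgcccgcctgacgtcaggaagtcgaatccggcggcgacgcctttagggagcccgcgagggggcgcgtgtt
FADS2 (chr11:61816154-61816403, + strand): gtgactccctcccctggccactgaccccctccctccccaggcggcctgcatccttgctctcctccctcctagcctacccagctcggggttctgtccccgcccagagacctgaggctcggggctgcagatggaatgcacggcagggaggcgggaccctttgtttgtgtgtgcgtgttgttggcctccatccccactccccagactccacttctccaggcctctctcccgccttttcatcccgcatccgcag
The capitals in SCD and ACSL3 are CCAAT, the box that the factor NF-Y is known to bind. The CCAAT of FADS2 lies after its start, outside the stretch shown. Both strands of windows from 250 bases before to 50 bases after each start were searched, and 17 windows of 9 of the genes were in the table. FASN had no window there, so its promoter was not searched. CCAAT was in 8 of the 17 windows, against 34.6% of all windows. The windows of ACLY overlap and hold the same CCAAT matches, so these were counted in each of them. Counted by gene, it was in windows of 6 of these 9 genes (ACACA, ACLY, ACSL1, ACSL3, FADS2 and SCD), against 39.7% of all genes in the table. A gene with several windows has more places for a match, so the count by gene depends on the number of windows. CACGTG, the E-box, was in 0 of the 17 windows, against 7.26% of all 35116 windows. The sterol regulatory element type TCACNCCAC was in 1 of 17 windows, at an alternative start of ACSL1, against 1.13% of all windows. An E2F-type motif (TTTCCCGC or TTTGGCGC) was in 1 of 17 windows, of ACACA, against 2.27% of all windows. These matches overlapped no other searched motif, and they describe letters in a window only.

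Palbociclib was followed by different patterns in the 2 sets of libraries. In DU145, 8 of the 10 genes were higher than with DMSO and 0 were lower, by edgeR's quasi-likelihood test with Benjamini-Hochberg adjusted p under 0.05. Over all 15361 genes tested there, 58.1% were called, 28.8% higher and 29.2% lower. In C4-2, 2 of the 10 were higher and 4 were lower, where 51.8% of 11943 genes were called, 25.2% higher and 26.6% lower. In DU145 the share of the 10 genes called higher was above that background. In C4-2 the 2 higher and 4 lower, of only 10 genes, were too few to set apart from the background shares. The count called lower in C4-2 was 3 with DESeq2 and 5 with a stricter filter on low counts. The median log2 fold change of the 10 genes was 0.47 in DU145, beside -0.01 over all genes tested, and -0.17 in C4-2, beside 0.00 over all genes tested. Only SCD and ACSL3 were called higher in both lines.

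**Figure D1:**
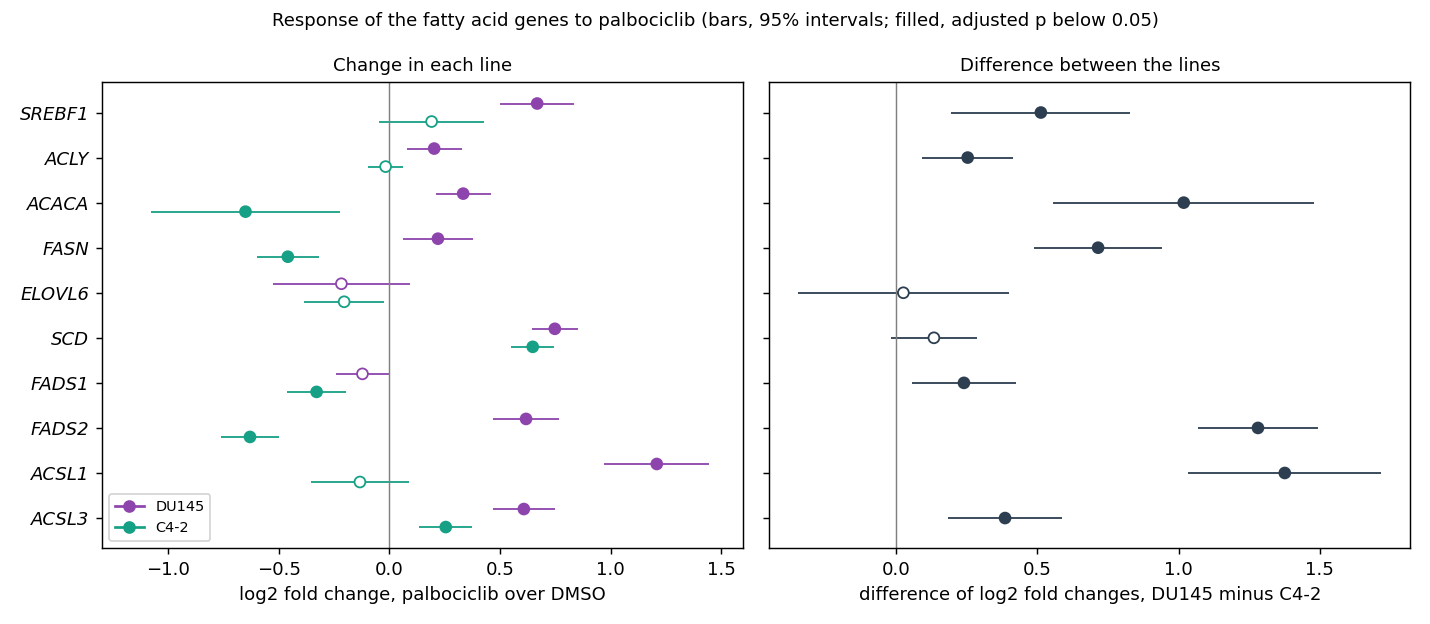
Left, log2 fold change of each gene, palbociclib over DMSO, in DU145 (purple) and C4-2 (green). Right, the DU145 change minus the C4-2 change. Points are estimates of edgeR, bars are 95% intervals, and filled points have an adjusted p below 0.05. In DU145, 8 points are filled and all 8 lie right of 0, whereas in C4-2, 4 filled points lie left of 0 and 2 lie right of it.

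The difference between the lines was tested in a joint fit, by subtracting the log2 fold change in C4-2 from that in DU145. It was called for 8 of the 10 genes, each time with the DU145 change above the C4-2 change. Among 18139 genes in this fit 33.4% were called, 18.4% in that direction and 15.0% in the other. The median difference was 0.45 for the 10 genes and -0.02 over all genes tested. Line cannot be told apart from table here, because each line was counted in a table of its own.

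SREBF1 (chr17:17810399-17837002, - strand), the regulator, had 446, 453 and 546 CPM in DU145 with palbociclib, against 307, 288 and 328 CPM with DMSO. The groups did not overlap, and the log2 fold change was 0.67 ± 0.08 (SE, edgeR adjusted p = 1.32e-06). In C4-2 it had 40.8, 47.1 and 45.9 CPM with palbociclib, against 35.5 and 40.5 CPM with DMSO. These groups did not overlap either, by a margin of under 1 CPM, and the change of 0.19 ± 0.12 did not pass the test (edgeR adjusted p = 0.174). The DU145 change exceeded the C4-2 change by 0.51 ± 0.16 (edgeR adjusted p = 0.0101), and this call was lost without C4-2 DMSO replicate 2, at 0.44 (edgeR adjusted p = 0.0992). SREBF1 shares 556 exon bases, 6.92% of its exons, with RAI1 on the opposite strand. RAI1 had log2 fold changes of 0.13 in DU145 (edgeR adjusted p = 0.171) and -0.30 in C4-2 (edgeR adjusted p = 0.00184).

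ACLY (chr17:41866908-41930542, - strand), which supplies cytosolic acetyl-CoA, had 554, 546 and 589 CPM in DU145 with palbociclib, against 493, 489 and 511 CPM with DMSO. Every palbociclib library was above every DMSO library, at a log2 fold change of 0.20 ± 0.06 (edgeR adjusted p = 0.00687). In C4-2 it had 482, 496 and 484 CPM with palbociclib, against 481 and 473 CPM with DMSO. The change was -0.02 ± 0.04 (edgeR adjusted p = 0.74), with a 95% interval from -0.10 to 0.06, and its sign turned to 0.03 when libraries were scaled by their totals alone. The difference between lines was 0.25 ± 0.08 (edgeR adjusted p = 0.012). It was lost with library totals (0.15, edgeR adjusted p = 0.147), which also moved the median difference of all genes to -0.12, and without C4-2 DMSO replicate 1 (0.24, edgeR adjusted p = 0.074). TTC25, 93 bases from ACLY on the opposite strand, had -1.03 ± 0.41 in DU145 (edgeR adjusted p = 0.0377) on a mean of 12.2 counts. KLHL11, 1477 bases from ACLY on the same strand, had 0.44 ± 0.12 in DU145 (edgeR adjusted p = 0.00499) and -0.10 ± 0.21 in C4-2 (edgeR adjusted p = 0.711).

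ACACA (chr17:37084988-37406818, - strand) makes malonyl-CoA, the committed step of the pathway. In DU145 it had 428, 400 and 412 CPM with palbociclib, against 340, 326 and 335 CPM with DMSO. The groups did not overlap, and the log2 fold change was 0.33 ± 0.06 (edgeR adjusted p = 0.000103). In C4-2 it held only 22, 44 and 70 counts with palbociclib (7.61, 16.9 and 20.7 CPM), against 69 and 82 counts with DMSO (19.8 and 27.2 CPM). These groups overlapped, and the change was -0.65 ± 0.21 (edgeR adjusted p = 0.00936). That call was lost without C4-2 palbociclib replicate 1 (-0.33, edgeR adjusted p = 0.129) or without C4-2 DMSO replicate 2 (-0.43, edgeR adjusted p = 0.127), and with DESeq2 (-0.68, adjusted p = 0.357), while without C4-2 palbociclib replicate 3 it was -0.99 (edgeR adjusted p = 0.000619). The difference between lines was 1.02 ± 0.23 (edgeR adjusted p = 0.00059). TADA2A, 56 bases away on the opposite strand, went the other way from ACACA in DU145, at -0.98 ± 0.11 (edgeR adjusted p = 6.05e-07). In C4-2 TADA2A averaged 13 counts and had -1.16 ± 0.40 (edgeR adjusted p = 0.0133).

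FASN (chr17:82078333-82098332, - strand), the multi-domain synthase, had 1131, 1089 and 1303 CPM in DU145 with palbociclib, against 1019, 944 and 1113 CPM with DMSO. The groups overlapped, and replicate 3 was the highest library of each group. The log2 fold change was 0.22 ± 0.07 (edgeR adjusted p = 0.0178), and the call was lost without DU145 DMSO replicate 1 (0.21, edgeR adjusted p = 0.0672) or replicate 2 (0.15, edgeR adjusted p = 0.128). Without DU145 palbociclib replicate 3 it was 0.14 (edgeR adjusted p = 0.0488). Without both DU145 libraries numbered 3 it was 0.20 ± 0.04 (edgeR adjusted p = 0.000124). With the replicate number as a block it was 0.22 ± 0.03 (edgeR adjusted p = 8.58e-07). In C4-2 FASN had 110, 116 and 112 CPM with palbociclib, against 142 and 159 CPM with DMSO. Here the groups were apart, at -0.46 ± 0.07 (edgeR adjusted p = 3.57e-07). The changes differed by 0.71 ± 0.11 (edgeR adjusted p = 4.91e-06).

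ELOVL6 (chr4:110045846-110199199, - strand) lengthens palmitate towards stearate, and it was the only one of the 10 genes called in none of the 3 comparisons. In DU145 it had 10.1, 7.95 and 7.02 CPM with palbociclib, against 8.69, 10.8 and 10.1 CPM with DMSO. In C4-2 it had 75.8, 67.5 and 69.3 CPM with palbociclib, against 73.9 and 84.9 CPM with DMSO. The groups overlapped in both lines. The log2 fold changes were -0.22 ± 0.15 in DU145 (edgeR adjusted p = 0.216) and -0.20 ± 0.09 in C4-2 (edgeR adjusted p = 0.052). In DU145 the value was -0.37 without palbociclib replicate 1 (edgeR adjusted p = 0.0545) and -0.10 without palbociclib replicate 3 (edgeR adjusted p = 0.574). Without C4-2 DMSO replicate 1 the C4-2 value was -0.31 (edgeR adjusted p = 0.0188), without C4-2 palbociclib replicate 1 it was -0.25 (edgeR adjusted p = 0.0302), and with a stricter filter on low counts it was -0.23 (edgeR adjusted p = 0.0336). Without C4-2 DMSO replicate 2 it was -0.12 (edgeR adjusted p = 0.426). The difference between lines was 0.02, with a 95% interval from -0.35 to 0.40, and its sign turned under several alternatives.

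SCD (chr10:100347124-100364834, + strand) encodes stearoyl-CoA desaturase, the source of oleate and palmitoleate. In DU145 it had 3358, 3184 and 3178 CPM with palbociclib, against 2011, 1954 and 1922 CPM with DMSO. In C4-2 it had 399, 381 and 401 CPM with palbociclib, against 253 and 233 CPM with DMSO. In both lines every palbociclib library was far above every DMSO library. The log2 fold changes were 0.75 ± 0.05 in DU145 (edgeR adjusted p = 1.14e-09) and 0.65 ± 0.05 in C4-2 (edgeR adjusted p = 3.02e-15), or 1.68-fold and 1.57-fold. The changes differed by 0.13 with a 95% interval from -0.02 to 0.29 (edgeR adjusted p = 0.19).

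FADS2 (chr11:61792980-61867354, + strand), the first desaturase of the polyunsaturated pathway, moved in opposite directions. In DU145 it had 95.3, 90.9 and 94.3 CPM with palbociclib, against 61.5, 59.9 and 64.3 CPM with DMSO. In C4-2 it had 112, 113 and 111 CPM with palbociclib, against 169 and 166 CPM with DMSO. Neither pair of groups overlapped. The log2 fold changes were 0.62 ± 0.07 in DU145 (edgeR adjusted p = 7.95e-07) and -0.63 ± 0.06 in C4-2 (edgeR adjusted p = 4.31e-11), and they differed by 1.28 ± 0.10 (edgeR adjusted p = 1.31e-11).

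FADS1 (chr11:61799625-61829318, - strand), which acts later in the same pathway, did not rise with FADS2 in DU145. There it had 567, 548 and 526 CPM with palbociclib, against 611, 621 and 585 CPM with DMSO. The palbociclib libraries were all lower, yet the log2 fold change of -0.12 ± 0.06 did not pass the test (edgeR adjusted p = 0.0736). It passed with library totals (-0.15, edgeR adjusted p = 0.0334) and without both libraries numbered 3 (-0.12, edgeR adjusted p = 0.0122). In C4-2 FADS1 had 130, 123 and 122 CPM with palbociclib, against 156 and 148 CPM with DMSO, a change of -0.33 ± 0.07 (edgeR adjusted p = 5.08e-05). The difference between lines, 0.24 ± 0.09 (edgeR adjusted p = 0.0392), was lost under 12 of the alternatives, including DESeq2 (0.19, adjusted p = 0.0919).

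FEN1 and TMEM258, which lie next to the FADS pair, changed in the same directions as FADS2. FEN1, a flap endonuclease of DNA replication that overlaps FADS2 on the same strand, had log2 fold changes of 0.79 ± 0.06 in DU145 (edgeR adjusted p = 3.89e-09) and -1.53 ± 0.11 in C4-2 (edgeR adjusted p = 8.36e-16). TMEM258, 178 bases away on the opposite strand, had 0.22 ± 0.07 (edgeR adjusted p = 0.0111) and -0.52 ± 0.16 (edgeR adjusted p = 0.00703). FADS2 shares 49 exon bases with FEN1, 0.444% of its exons, and 490 with FADS1, 4.44% of its exons and 4.79% of those of FADS1. Reads of opposite strands cannot be told apart in the C4-2 table, which was counted without strand, and the part of shared reads in these changes was not tested.

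ACSL1 (chr4:184755595-184826818, - strand), an acyl-CoA ligase known from adipose, liver and muscle, had 21.4, 21.5 and 21.1 CPM in DU145 with palbociclib, against 8.63, 10.8 and 8.66 CPM with DMSO. This log2 fold change, 1.21 ± 0.11 or 2.31-fold, was the largest of the 10 genes in that line (edgeR adjusted p = 7.15e-08). In C4-2 ACSL1 had 45.3, 44.5 and 42.9 CPM with palbociclib, against 45.3 and 48.7 CPM with DMSO. The groups overlapped there, at -0.13 ± 0.11 (edgeR adjusted p = 0.318, 95% interval from -0.35 to 0.09). The lines differed by 1.38 ± 0.17 (edgeR adjusted p = 6.82e-08).

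ACSL3 (chr2:222860934-222944639, + strand), a ligase of the endoplasmic reticulum and lipid droplets, had 336, 317 and 287 CPM in DU145 with palbociclib, against 215, 214 and 198 CPM with DMSO. In C4-2 it had 192, 197 and 189 CPM with palbociclib, against 158 and 154 CPM with DMSO. The groups were apart in both lines. The log2 fold changes were 0.61 ± 0.07 in DU145 (edgeR adjusted p = 5.61e-07) and 0.25 ± 0.06 in C4-2 (edgeR adjusted p = 0.000364), and the difference of 0.39 ± 0.10 passed the test too (edgeR adjusted p = 0.00256).

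**Figure D2:**
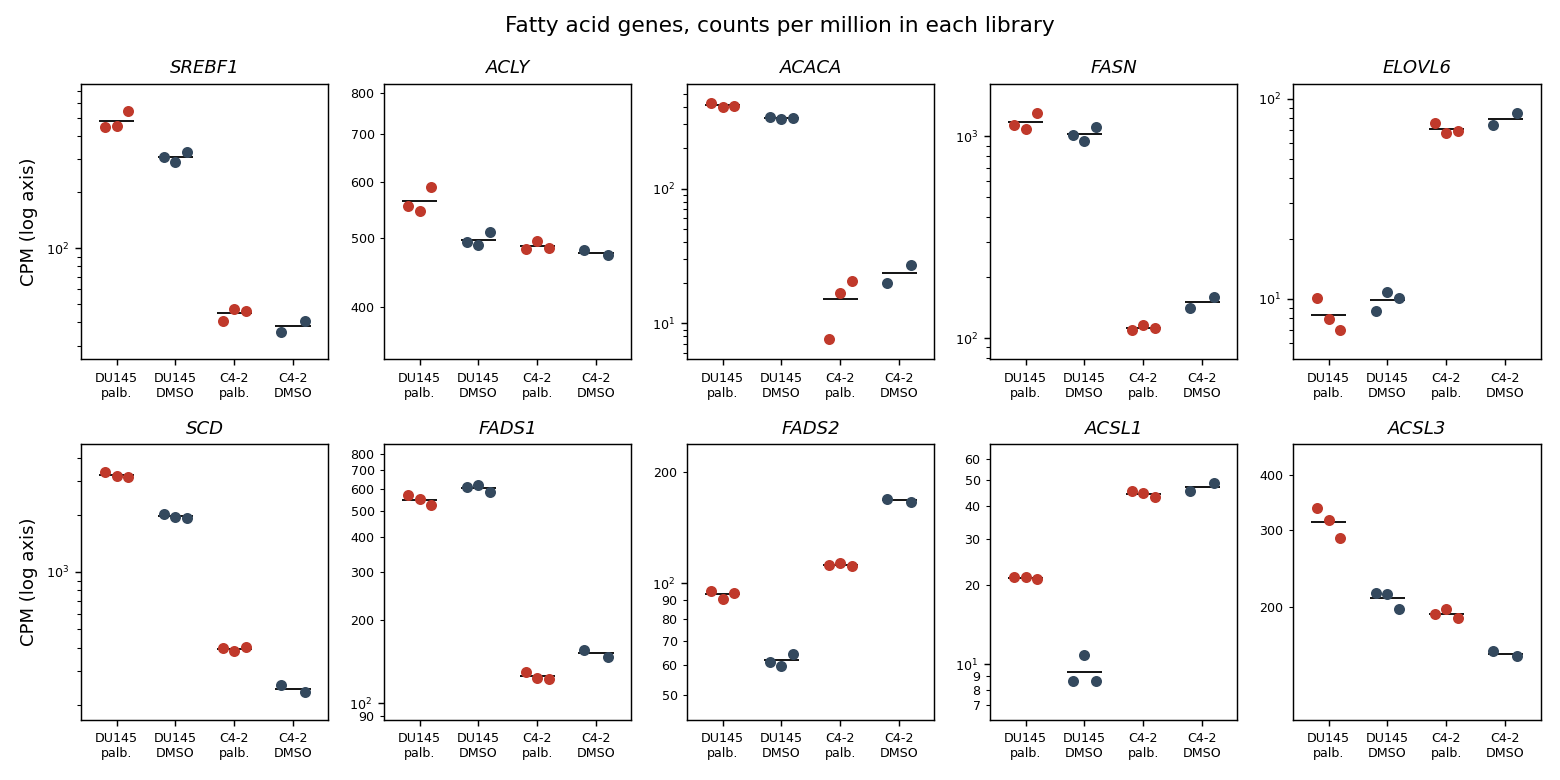
CPM of each gene (log axes, a range for each panel) in each library, with palbociclib in red and DMSO in blue, and group means as lines. SCD and ACSL3 are higher with palbociclib in both lines, whereas FADS2 is 111 to 113 CPM with palbociclib and 166 to 169 CPM with DMSO in C4-2 and has the reverse order in DU145.

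Added together, the 10 genes took 6947, 6658 and 6963 CPM of DU145 libraries with palbociclib, against 5075, 4918 and 5075 CPM with DMSO. In C4-2 they took 1595, 1603 and 1597 CPM with palbociclib, against 1533 and 1534 CPM with DMSO. In DU145 every palbociclib library was above every DMSO library. The gap in C4-2 nearly closed with TMM scaling, which gave 1573, 1584 and 1575 with palbociclib against 1568 and 1562 with DMSO. Without SCD, the other 9 genes summed to 3589, 3473 and 3785 CPM in DU145 with palbociclib, against 3064, 2964 and 3153 CPM with DMSO. In C4-2 they summed to 1196, 1222 and 1196 CPM with palbociclib, against 1280 and 1301 CPM with DMSO, so their order was opposite to that of all 10 together.

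Levels of different genes were compared per length, as TPM (counts per length, scaled to a fixed total per library), with the lengths in the DU145 table. In DU145 with palbociclib the order was SCD (2185 TPM), FASN (454), ACLY (390), SREBF1 (217), FADS1 (193), ACSL3 (156), ACACA (115), FADS2 (30.7), ACSL1 (12.3) and ELOVL6 (4.14), and no neighbours in it overlapped. With DMSO it was SCD (1275 TPM), FASN (382), ACLY (332), FADS1 (206), SREBF1 (134), ACSL3 (101), ACACA (89.4), FADS2 (19.6), ACSL1 (5.19) and ELOVL6 (4.71), where ACSL1 and ELOVL6 overlapped. SREBF1 thus stood above FADS1 with palbociclib and below it with DMSO. In C4-2 with palbociclib the order was ACLY (431 TPM), SCD (339), ACSL3 (123), FADS1 (56.5), FASN (55.6), FADS2 (46.9), ELOVL6 (44.8), ACSL1 (32.5), SREBF1 (25.7) and ACACA (5.35), with overlap of FADS1 with FASN and of FADS2 with ELOVL6. With DMSO it was ACLY (416 TPM), SCD (206), ACSL3 (98.0), FASN (73.0), FADS2 (69.2), FADS1 (67.5), ELOVL6 (49.5), ACSL1 (34.0), SREBF1 (21.5) and ACACA (8.21), with overlap of FADS2 with FASN and with FADS1.

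**Figure D3:**
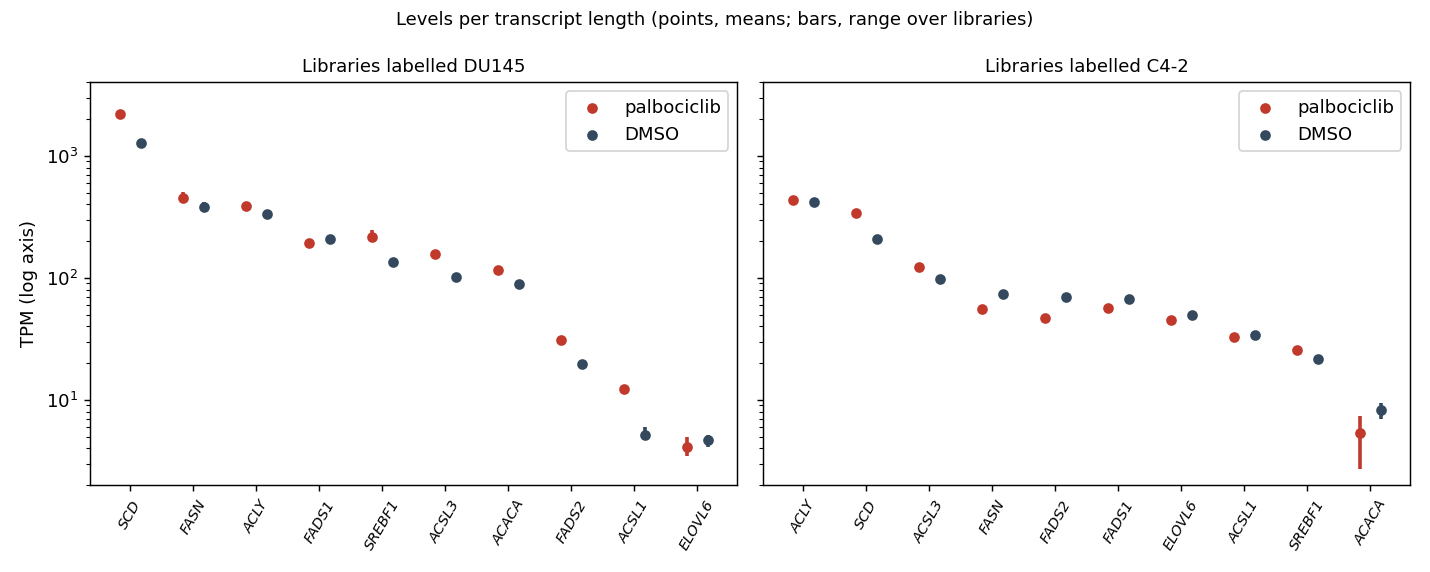
Level of each gene per transcript length (TPM, log axis) with palbociclib (red) and DMSO (blue), in the order of the DMSO means of each line. Points are means and bars the range over libraries, and SCD leads in DU145 (2185 TPM with palbociclib, 1275 TPM with DMSO) while ACLY leads in C4-2 (431 and 416 TPM).

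Ratios of TPM within a library show how the RNA levels of these genes shifted against each other. SCD over FASN was 5.18, 5.11 and 4.26 in DU145 with palbociclib, against 3.45, 3.62 and 3.01 with DMSO. In C4-2 it was 6.32, 5.75 and 6.26 with palbociclib, against 3.12 and 2.56 with DMSO. The RNA of the desaturase was thus higher relative to that of the synthase in every palbociclib library. FADS2 over FADS1 was 0.156, 0.154 and 0.166 in DU145 with palbociclib, against 0.0934, 0.0896 and 0.102 with DMSO. In C4-2 this ratio was 0.799, 0.853 and 0.845 with palbociclib, against 1.01 and 1.05 with DMSO, the opposite order. SREBF1 over SREBF2, the gene of the related factor SREBP2 that is best known for sterol synthesis, was 1.16, 1.21 and 1.30 in DU145 with palbociclib, against 0.925, 0.868 and 0.916 with DMSO. In C4-2 it was 0.292, 0.335 and 0.332 with palbociclib, against 0.277 and 0.289 with DMSO. Only the order of the libraries is given for these ratios, with no test.

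The neighbouring pathway that SREBP2 serves, sterol synthesis, also differed between lines. Of 10 sterol genes, 9 were higher and 0 lower in DU145 (median log2 fold change 0.53), while 1 was higher and 4 were lower in C4-2 (median -0.19). Over all genes tested, 28.8% were higher and 29.2% lower in DU145, and 25.2% and 26.6% in C4-2. HMGCS1, which makes the precursor of mevalonate, had 317 CPM on average in DU145 with palbociclib and 164.7 CPM with DMSO, a log2 fold change of 0.97 ± 0.07 (edgeR adjusted p = 1.37e-09). In C4-2 HMGCS1 had 116 CPM with palbociclib and 106.6 CPM with DMSO, a change of 0.08 ± 0.07 (edgeR adjusted p = 0.368). LSS and DHCR7, enzymes of the later steps, rose in DU145 by 0.87 and 0.81. FDPS, which makes farnesyl diphosphate, had 0.00 ± 0.06 in DU145 (edgeR adjusted p = 0.991) and -0.71 ± 0.11 in C4-2 (edgeR adjusted p = 9.39e-07). The difference between lines was called for 9 of the 10 sterol genes, all with the DU145 change above the C4-2 change, as it was for 18.4% of all genes in the joint fit.

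The other lists are to be read against the same shares of all genes tested, 28.8% higher and 29.2% lower in DU145 and 25.2% and 26.6% in C4-2. Among SREBP regulators, 5 of 11 were higher and 5 lower in DU145, and 3 of 10 were higher and 3 lower in C4-2. INSIG1, which holds SREBPs in the endoplasmic reticulum, was higher in both (0.81 ± 0.06 and 0.40 ± 0.12). Its relative INSIG2 changed by -0.28 ± 0.11 in DU145 and 1.79 ± 0.10 in C4-2, a difference of -2.04 ± 0.17 (edgeR adjusted p = 1.54e-11). NR1H3, the sterol-sensing receptor LXR alpha, fell in both lines. The fall was 1.27 ± 0.09 in DU145 (edgeR adjusted p = 1.66e-09) and 1.09 ± 0.38 in C4-2 (edgeR adjusted p = 0.0149). In C4-2 it was low, at 2.81 CPM on average with palbociclib and 5.76 CPM with DMSO. Of precursor supply genes, 2 of 7 were higher and 3 lower in DU145, and 2 of 6 were higher and 2 lower in C4-2. IDH1, the cytosolic isocitrate dehydrogenase, had -1.49 ± 0.08 in DU145 and 0.86 ± 0.06 in C4-2, and ME1, which makes NADPH, had -0.41 ± 0.08 and 0.55 ± 0.07. ACSS2, which makes acetyl-CoA from acetate, had 0.67 ± 0.07 in DU145 (edgeR adjusted p = 4.5e-07) and 0.12 ± 0.15 in C4-2 (edgeR adjusted p = 0.541). MID1IP1, a partner of acetyl-CoA carboxylase, had 0.40 ± 0.07 in DU145 (edgeR adjusted p = 0.000166) and 0.20 ± 0.13 in C4-2 (edgeR adjusted p = 0.179). SLC25A1, the mitochondrial citrate carrier, had 0.00 ± 0.07 in DU145 (edgeR adjusted p = 0.972) and -0.65 ± 0.08 in C4-2 (edgeR adjusted p = 1.75e-08).

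Elongation and desaturation genes outside the 10 gave 4 of 12 higher and 4 lower in DU145, and 2 of 12 higher and 4 lower in C4-2. FADS3, the third gene of the FADS family, had -0.52 ± 0.08 in DU145 and 0.77 ± 0.09 in C4-2, opposite to FADS2 in each line, and differed between lines by -1.26 ± 0.13 (edgeR adjusted p = 1.13e-09). ELOVL7 rose in DU145 by 1.29 ± 0.15, and TECR, the last enzyme of the elongation cycle, fell in C4-2 by 0.58. Other acyl-CoA ligases were called lower in DU145 more often than all genes there, with 1 of 11 higher and 7 lower. In C4-2, 4 of 7 were higher and 1 was lower. The 1 higher in DU145 was ACSL4, known for its preference for arachidonate, at 0.62 ± 0.08 in DU145 and 0.30 ± 0.05 in C4-2. SLC27A3 and SLC27A2 fell in DU145 by 0.94 and 0.87. Glycerolipid acylation genes gave 4 of 10 higher and 6 lower in DU145 and 2 of 10 higher and 2 lower in C4-2, with LPIN1 at 0.89 ± 0.07 and 0.22 ± 0.09 (edgeR adjusted p = 0.0507 in C4-2). Of fatty acid oxidation genes, 1 of 12 was higher (PPARGC1A, 1.11 ± 0.12) and 4 were lower in DU145, among them ACADM at -0.89, and 2 of 10 were higher in C4-2, among them PPARA at 1.04 ± 0.09, and 1 was lower, HADHA at -0.17 ± 0.06. Mitochondrial fatty acid synthesis, a separate pathway, gave 2 of 6 higher and 2 lower in DU145 and 0 of 5 called in C4-2.

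**Figure D4:**
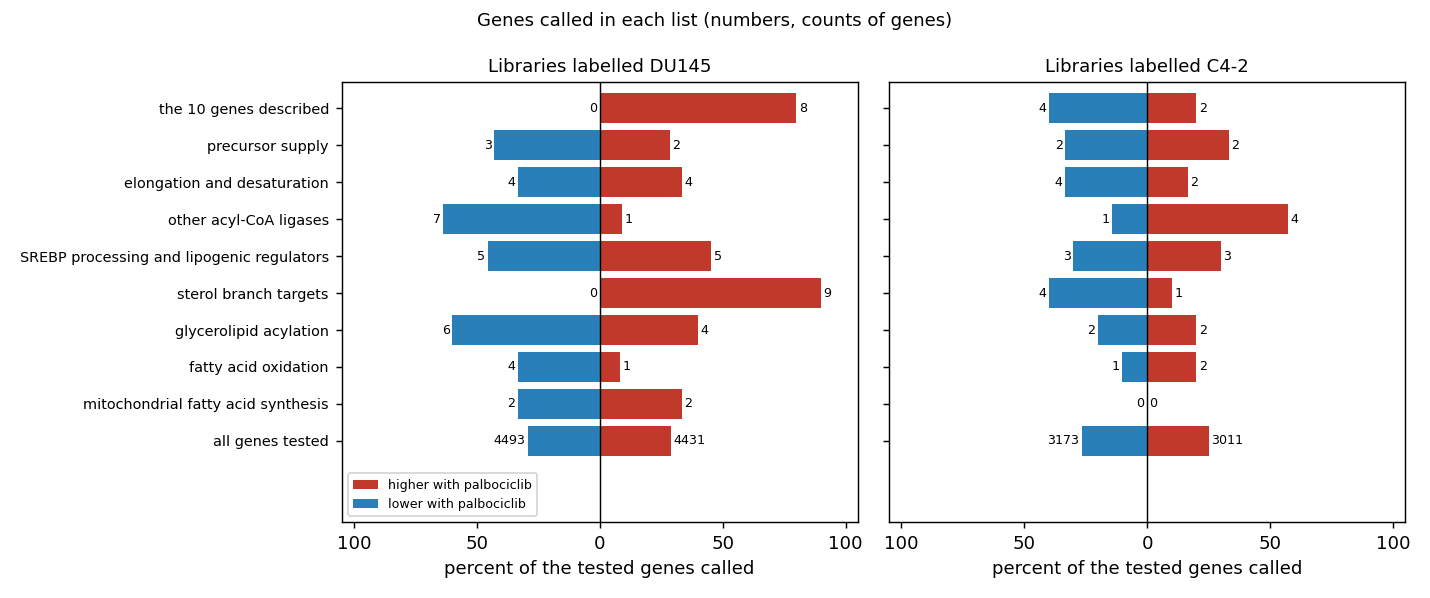
Percent of the tested genes of each list called higher (right, red) or lower (left, blue) with palbociclib, with counts of genes beside the bars. The 10 genes (8 higher, 0 lower) and the sterol branch (9 higher, 0 lower) stand to the right in DU145, and all genes tested split into 4431 higher and 4493 lower there.

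Levels in the C4-2 table relative to the DU145 table were set beside those of the surrounding genes, as a description of 2 tables that were counted separately. The mean CPM of ACACA had a log2 ratio of -4.33, C4-2 over DU145. The 13 coding genes within 1 Mb of it that had at least 5 CPM in DU145 had a median ratio of -4.35, against -0.27 over 10375 such genes. Of these 13, 7 were below 1 CPM in C4-2, against 596 of 10375. SREBF1 (-3.23), FASN (-3.10) and SCD (-2.96) were also far lower in the C4-2 table, but the genes around them had medians of -0.74, -0.90 and -0.38. ELOVL6 (3.01), ACSL1 (1.56) and FADS2 (0.79) were higher in the C4-2 table. What sets these levels was not tested.

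**Figure D5:**
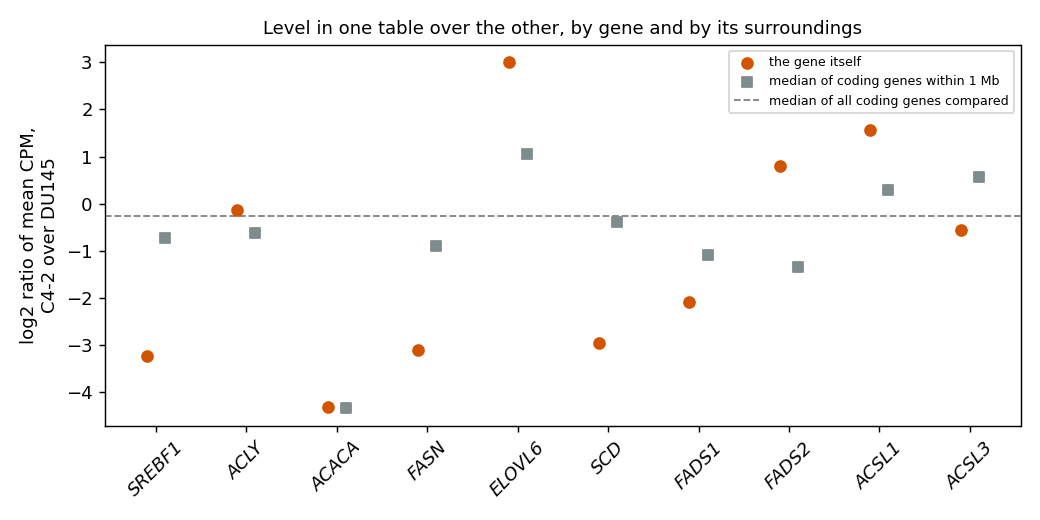
log2 ratio of mean CPM, C4-2 table over DU145 table, for each of the 10 genes (orange) and the median of the coding genes within 1 Mb (grey squares), with the median of all genes compared as a dashed line. ACACA and its surroundings lie together at -4.33 and -4.35, whereas SREBF1, FASN and SCD lie below theirs.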

How the data were processed

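Raw counts were deposited by the authors in separate gene tables for the lines. The C4-2 table was made with featureCounts 2.0.1 from read pairs, on exons of Ensembl annotation release 107 and without strand, per the file headers. How the DU145 counts were aligned, counted and stranded is not given in the sources used. Build hg38 is named in the submitters' processing notes, and the coordinates and lengths of the 10 genes are those of the DU145 table, equal to GENCODE release 29. Lengths were found for 56747 of 61860 C4-2 identifiers, with at least 99.9% of the counts.

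Each line was fitted alone with edgeR 4.0.16 in R 4.3.3 (filterByExpr by group, TMM scaling, quasi-likelihood F test, Benjamini-Hochberg adjustment over all genes tested at 0.05), and a joint fit of shared identifiers gave the interaction of line and treatment. The fits were tested on simulated counts, drawn with the same dispersion for every gene. Those counts lack the spread of the DU145 libraries numbered 3, so that test cannot show how well the p-values hold here. CPM used library totals, TPM used counts and lengths, and SE came from the coefficient and its F statistic. The plan had been 3 against 3 libraries, and 3 against 2 were left in C4-2. The labels do not tell separate cultures from repeat libraries, so the p-values rest on a spread between libraries that could be technical. The chi-square between libraries of a group, divided by its degrees of freedom, was 2.36 to 8.34 in DU145 and 1.14 to 1.18 in C4-2, where 1 is counting noise alone.

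The genes, the 8 other lists (85 genes) and the 35 markers were chosen with earlier results of these data known. The text names all 10 genes, up to 4 called genes of each list per line by adjusted p, genes next to or overlapping one of the 10, and markers; list genes beyond this were chosen after their values were seen. A few list genes are not reported here by name. Alternatives were other scalings (DESeq2 size factors, library totals), no filter or a stricter one, DESeq2 1.42.0, the replicate number as a block, and leaving out libraries.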

Additional observations from a re-analysis of the deposited data

Results flagged for a closer look

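The response to palbociclib differed between the lines for 8 of the 10 genes in the joint test of the difference itself, where the log2 fold change in C4-2 is taken from that in DU145. For FADS2 and ACSL1 the differences were 1.28 (edgeR adjusted p = 1.31e-11) and 1.38 (edgeR adjusted p = 6.82e-08). ACACA and FASN differed by 1.02 (edgeR adjusted p = 0.00059) and 0.715 (edgeR adjusted p = 4.91e-06). For SREBF1 and ACSL3 the values were 0.512 (edgeR adjusted p = 0.0101) and 0.385 (edgeR adjusted p = 0.00256). ACLY and FADS1 had the smallest called differences, 0.253 (edgeR adjusted p = 0.012) and 0.24 (edgeR adjusted p = 0.0392). FADS2, FASN and ACACA were called in opposite directions in the 2 lines. The FASN call in DU145 was lost without DMSO replicate 1 or 2 (edgeR adjusted p = 0.0672 and 0.128). It was kept without both libraries numbered 3 (edgeR adjusted p = 0.000124) and with the replicate block (edgeR adjusted p = 8.58e-07). The ACACA call in C4-2 was lost without palbociclib replicate 1 or DMSO replicate 2 (edgeR adjusted p = 0.129 and 0.127) and with DESeq2 (adjusted p = 0.357).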

How the results depend on the processing

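The counts of genes called among the 10 stayed within 1.5 times of the reported ones under every alternative run, except the count called lower in DU145. In DU145, 1 gene in place of 0 was called lower (FADS1) with library totals, with the replicate block and without both libraries numbered 3. Leaving out 1 library at a time gave 7 to 8 higher and 0 lower in DU145, 2 higher and 3 to 5 lower in C4-2, and 6 to 8 called for the difference. The ACLY change in C4-2 turned to 0.0317 with library totals. The ELOVL6 difference between lines turned to -0.023 with RLE size factors, -0.080 with library totals and -0.0229 with DESeq2, and leaving out 1 library at a time gave -0.138 (without DU145 palbociclib replicate 1) to 0.126 (without DU145 palbociclib replicate 3). It was never called, and the cause was not tested. Of the single-gene values, 125 in DU145, 103 in C4-2 and 157 for the difference kept direction and side of the threshold, while 2, 3 and 15 lost a call. Over all genes in C4-2, DESeq2 called 1800 higher and 1993 lower, where edgeR called 3011 and 3173. Deviations of same-numbered libraries from their group means had r = 0.00677 and 0.0292 in C4-2, and 0.0200, 0.0358 and 0.128 in DU145. The 0.128 was for number 3, where DU145 palbociclib replicate 3 had -0.0503 and -0.0874 with the other DMSO libraries. Crossing numbers 1 and 2 in DU145 gave 0.0612 and 0.0364, no lower than their like-numbered pairs. With 2 DMSO libraries in C4-2 the values mirror each other and cannot decide. The reported fits did not pair the libraries, and whether the numbers pair them is not settled. With the replicate block the SCD difference was 0.16 (edgeR adjusted p = 0.039) and FADS1 in DU145 was -0.12 (edgeR adjusted p = 0.003). Totals were lower in C4-2, where ACACA rested on 22 to 82 counts a library and only 2 DMSO libraries held counts. With the replicate block ACACA in C4-2 was -1.01 (edgeR adjusted p = 7.17e-05).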
